A study of Mus musculus with 32 samples.

Results

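The tricarboxylic acid (TCA) cycle, the entry of pyruvate into it and the breakdown of the branched-chain amino acids leucine, isoleucine and valine were followed through 37 genes in the left ventricle of 32 mice. The genes were chosen by name as enzymes of these routes, of 18193 genes named on the array, with earlier results of these data known. The list has 14 TCA cycle genes, 7 genes of pyruvate entry and 16 genes of branched-chain breakdown. Of the 37, 36 were named by a probe set of their own (Mpc2, a subunit of the mitochondrial pyruvate carrier, was not analysed here) and 35 passed the filter on low signals. Bcat1, the cytosolic branched-chain transaminase, stayed below it, at signals of 7.6 to 98 in the sham mice and 15.4 to 183.8 in the TAC mice, and was not tested.

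The study crossed sex, estrogen receptor beta genotype and surgery in C57Bl6 mice, with 4 individual mice in each of 8 groups and 1 Affymetrix array per mouse. Females and males, wild type or estrogen receptor beta knockout (its making not given in the sources used here), had either transverse aortic constriction (TAC), which narrows the aorta and loads the left ventricle with pressure, or a sham operation. All mice are labelled as 10 weeks old, at an unstated point of the experiment. The labels put TAC at 9 weeks in the knockouts and give wild-type mice no duration. Each sex and genotype is called a stratum here, and it holds 4 TAC and 4 sham mice.

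The TCA cycle oxidises acetyl-CoA in the mitochondrial matrix and hands electrons to the respiratory chain. Pyruvate enters it through the pyruvate dehydrogenase complex or through pyruvate carboxylase. Branched-chain amino acids are first transaminated and then committed to breakdown by the branched-chain keto acid dehydrogenase complex, after which separate enzymes carry leucine, isoleucine and valine to acetyl-CoA, acetoacetate and, through propionyl-CoA, succinyl-CoA. Both dehydrogenase complexes have the same plan (an E1, an E2 and a shared E3 subunit encoded by Dld). Both are switched off by dedicated kinases and on by dedicated phosphatases. The heart normally relies on mitochondrial oxidation for most of its ATP.

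The probe set for Esr2, the gene of estrogen receptor beta, gave signals of 3.6 to 67.7 in the mice labelled wild type and 25.8 to 196.8 in those labelled knockout. It was below the filter, it was higher in the labelled knockouts, and the sources used here do not place its probes relative to the deletion, so it checks no genotype label; wild type and knockout below mean the mice so labelled. All 12 cardiomyocyte marker genes were named on every array, with summed signals of 408810 to 550300 in the sham mice. Array median signals ran from 101.5 to 127.7, and within-group correlations of log2 values from 0.914 to 0.988. In 2 array measures, 2 arrays were set apart: female wild-type TAC replicate 1 in its highest signal (95437) and male knockout sham replicate 2 in the beta-actin control below. By marker sums, female wild-type sham replicate 3 had an atrial sum of 36148 (sham median 2808, next sham array 14698). The erythroid sum of female wild-type TAC replicate 3 was 3131 (TAC median 875, next TAC array 1389).

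With TAC, 23 of the 35 tested members were lower and 0 were higher in the average over the 4 strata (limma, Benjamini-Hochberg adjusted p under 0.05 over all 11014 genes tested). Over all tested genes 41.2% passed, 17.8% lower and 23.5% higher. The members were chosen with earlier results of these data known, so this comparison of shares is descriptive. The members called lower were 11 of 14 TCA cycle genes, 3 of 6 genes of pyruvate entry and 9 of 15 genes of branched-chain breakdown. The median log2 change was -0.30 over the 20 TCA cycle and pyruvate genes and -0.43 over the 15 branched-chain genes, beside 0.02 over all genes. Changes are on the log2(signal + 32) scale, which understates those of low genes, and the number of arrays limits their precision.

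**Figure D1:**
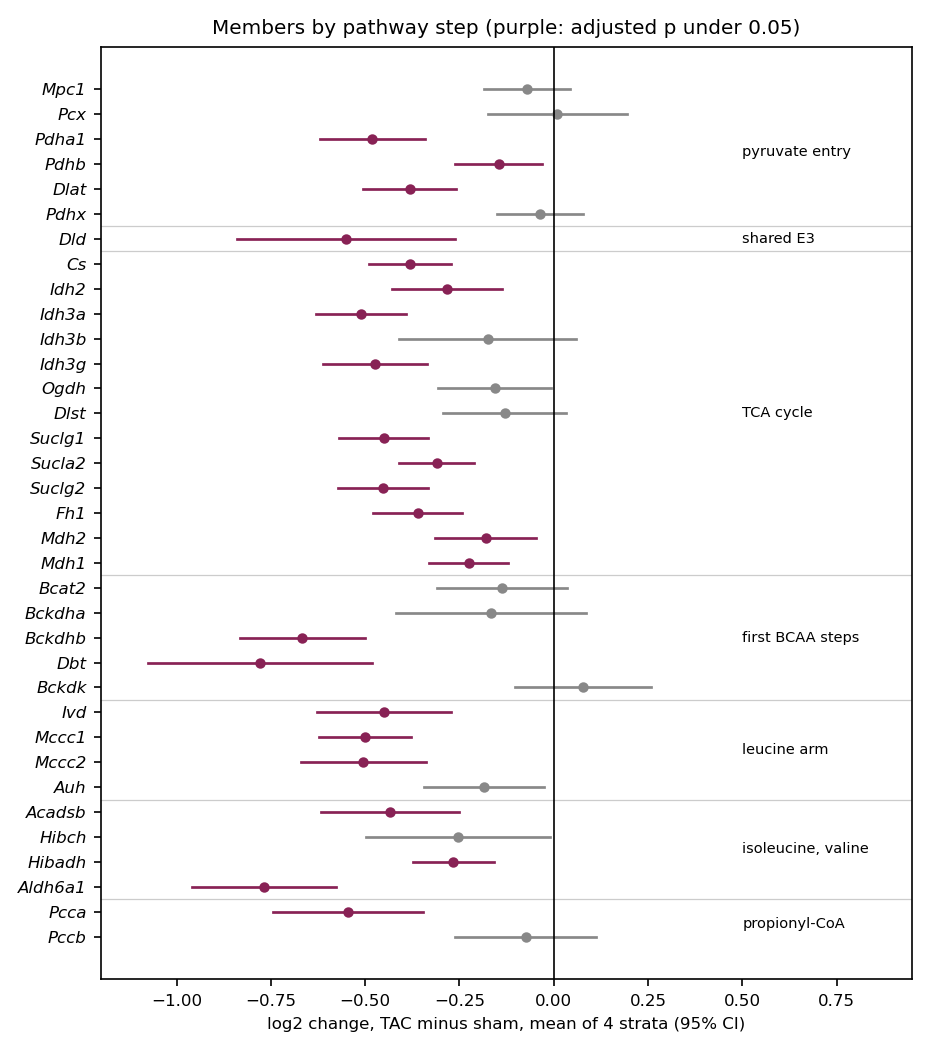
Log2 change of each of the 35 tested members, TAC minus sham, averaged over the 4 strata (point) with its 95% confidence interval (line), on the log2(signal + 32) scale, ordered by pathway step; purple marks an adjusted p under 0.05. The changes run from -0.78 for Dbt to 0.08 for Bckdk, and 23 members are purple, all to the left of 0.

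Markers of some other cells moved with surgery. In the average over the 4 strata 17.8% of all tested genes were lower and 23.5% higher. Fibroblast markers were higher in 6 of 10 and lower in 0, with summed signals of 32059 to 54034 in sham and 43560 to 118897 in TAC mice, and macrophage markers were higher in 9 of 11, with sums of 10211 to 18246 against 13943 to 32201. Of 8 pericyte and smooth muscle markers 7 were tested, and 4 were lower (Myh11, Acta2, Rgs5 and Kcnj8) and 3 higher (Tagln, Pdgfrb and Cspg4), with sums of 21905 to 37704 (median 33884) in sham and 19784 to 33316 (median 26079) in TAC mice. Endothelial markers were lower in 1 and higher in 3 of 10, near the shares of all genes. Their sums were 13287 to 21119 in sham and 17491 to 22298 in TAC mice. Cardiomyocyte markers were lower in 4 of 12 (Ryr2, Pln, Tnni3 and Atp2a2) with a median change of -0.17, and their sum was 366332 to 480015 in 15 TAC mice and 799732 in female wild-type TAC replicate 1, with a median of 408859 beside 479328 in sham mice. The 3-prime minus 5-prime log2 difference of the beta-actin control, a measure of RNA and labelling quality, was 0.45 to 1.10 on sham and 0.05 to 0.48 on TAC arrays. With it as a covariate, 14 members were lower and 3.35% of all genes were lower. Under that covariate the calls of Acadsb, Dbt, Dld, Hibadh, Idh2, Idh3g, Ivd, Mdh1, Mdh2, Pcca, Pdha1 and Pdhb ended, with limma adjusted p from 0.0624 (Pdha1) to 0.535 (Dld), and Bcat2, Ogdh and Pccb passed. The median change under it was -0.37 over the TCA cycle and pyruvate genes and -0.49 over the branched-chain genes, beside -0.30 and -0.43 without it. Single genes moved both ways under it, as Dbt to -0.45 and Pccb to -0.55. The covariate overlapped little between sham and TAC arrays, so its part and that of surgery cannot be told apart. With the same measure of the Gapdh control as the covariate, the calls of Dld, Idh2, Mdh1, Mdh2 and Pdhb ended, with limma adjusted p from 0.0657 (Idh2) to 0.548 (Mdh2), and the medians were -0.26 and -0.44. The part of these markers and of array quality in the members' changes was not tested further, and in bulk tissue fewer cells of a type and less RNA per cell cannot be told apart.

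Pyruvate reaches the mitochondrial matrix through a carrier of which Mpc1 is a subunit, and its signal ran from 20692 to 27092 (median 24261) in the 16 sham mice and 19386 to 29856 (median 22707) in the 16 TAC mice. Its log2 change of -0.07 ± 0.06 (SE; adjusted p = 0.323) did not pass. Pdha1 encodes the catalytic alpha subunit of pyruvate dehydrogenase E1, and its change was -0.48 ± 0.07 (SE; adjusted p = 1.8e-06). In wild-type females, Pdha1 signals were 24339, 24019, 27338 and 26626 after sham surgery and 23549.5, 22914, 17592 and 20007 after TAC. The Pdha1 signals of wild-type males were 24633, 27438, 28299.8 and 28906 with sham surgery against 17543, 19009.5, 19379.5 and 19936 with TAC. For Pdha1, all 4 TAC mice lay below all 4 sham mice in both wild-type strata and knockout males, while the groups overlapped in knockout females. In knockout females, Pdha1 signals were 21023, 17649, 25407 and 24638 after sham surgery and 16020.3, 13931, 13667 and 21408 after TAC. The Pdha1 signals of knockout males were 26210, 28585, 23432 and 18209.6 with sham surgery against 15107, 16704, 15537 and 13339 with TAC. By stratum, Pdha1 stood at log2 changes of -0.29 and -0.52 in wild-type females and males and -0.46 and -0.65 in their knockout counterparts, past the threshold in wild-type males and both knockout strata.

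The beta subunit of the same E1 enzyme, Pdhb, changed by -0.15 ± 0.06 (SE; adjusted p = 0.0387), a call that ended in 14 of the 32 fits leaving out 1 array. Dlat, the E2 subunit, fell by 0.38 ± 0.06 (SE; adjusted p = 9.58e-06). Dlat signals spanned 7849.7 to 10560.1 (median 9245) in the 16 sham mice and 5682 to 9665 (median 7334) in the 16 TAC mice. Pdhx, which holds E3 in the complex, was at -0.04 ± 0.06 (SE; adjusted p = 0.633). Pyruvate carboxylase (Pcx), which feeds oxaloacetate into the cycle, was at 0.01 ± 0.09 (SE; adjusted p = 0.944), and its strata differed in sign.

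Pcx was the one member called higher in any stratum. The Pcx signals of knockout males were 423, 339, 594 and 723 with sham surgery against 867, 764, 592 and 780.2 with TAC. The log2 change was 0.55 ± 0.18 (SE; adjusted p = 0.0215), although the highest sham mouse was above the lowest TAC mouse. This call ended without sham replicate 1 or 2 or TAC replicate 1 or 4 (limma, adjusted p = 0.0536 to 0.139), with only the groups compared (adjusted p = 0.125) and with the Gapdh (0.50; adjusted p = 0.0795) and beta-actin covariates (0.27; adjusted p = 0.489). Changes of -0.31 and -0.22 in wild-type females and males, and of 0.02 in knockout females, did not pass.

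Citrate synthase (Cs) joins acetyl-CoA to oxaloacetate in the first step of the cycle and changed by -0.38 ± 0.05 (SE; adjusted p = 1.46e-06). In wild-type females, Cs signals were 26652, 28844, 30805 and 28414 after sham surgery and 27312, 22676, 21205 and 22604 after TAC. The Cs signals of wild-type males were 27731, 28978, 29684 and 28220.2 with sham surgery against 24098, 18462, 19717 and 19731 with TAC. For Cs, all 4 TAC mice lay below all 4 sham mice in wild-type males and knockout females, while the groups overlapped in wild-type females and knockout males. In knockout females, Cs signals were 29782, 29013, 27301 and 26193 after sham surgery and 22853, 20893, 22683 and 23043 after TAC. The Cs signals of knockout males were 30391, 31134, 26891 and 27675 with sham surgery against 24329, 27097, 18320.4 and 18409.6 with TAC. By stratum, Cs stood at log2 changes of -0.29 and -0.49 in wild-type females and males and -0.33 and -0.42 in their knockout counterparts, past the threshold in wild-type males and knockout males.

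The NAD-dependent isocitrate dehydrogenase of the cycle is built of alpha, beta and gamma subunits encoded by Idh3a, Idh3b and Idh3g. Idh3a, the catalytic subunit, had the smallest p of the members, at -0.51 ± 0.06 (SE; adjusted p = 4.7e-08) or 1.42-fold lower. In wild-type females, Idh3a signals were 23458, 24696, 24428 and 24619 after sham surgery and 20452, 19114, 13823 and 17943 after TAC. The Idh3a signals of wild-type males were 25772, 23619.8, 22736 and 22729.5 with sham surgery against 20816, 14992, 14190.2 and 16632 with TAC. For Idh3a, every TAC value lay below every sham value of the same sex and genotype in all 4 strata. In knockout females, Idh3a signals were 26182, 21417, 21299.8 and 21940 after sham surgery and 17852, 14264, 16747 and 17512 after TAC. The Idh3a signals of knockout males were 24036, 25007, 23548 and 23376 with sham surgery against 14992, 18683, 13868 and 15728 with TAC. Idh3a log2 changes were -0.46 and -0.52 in wild-type females and males and -0.45 and -0.61 in their knockout counterparts, past the threshold in all 4. The highest TAC signal of any stratum (20816) was below the lowest sham signal of any stratum (21300).

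Idh3g, a regulatory subunit, changed by -0.47 ± 0.07 (SE; adjusted p = 1.85e-06). In wild-type females, Idh3g signals were 19084, 21305, 21657 and 19629 after sham surgery and 15064, 17435, 15191 and 15536 after TAC. The Idh3g signals of wild-type males were 19319.8, 20609, 20819 and 20471 with sham surgery against 16057, 12528, 14722 and 14174 with TAC. For Idh3g, all 4 TAC mice lay below all 4 sham mice in both wild-type strata and knockout males, while the groups overlapped in knockout females. In knockout females, Idh3g signals were 19767, 15298, 19641 and 19668 after sham surgery and 14841, 9136, 14681 and 16269.5 after TAC. The Idh3g signals of knockout males were 20835, 21566, 19783 and 19305 with sham surgery against 10781, 17119, 14214 and 13759 with TAC. Idh3g log2 changes were -0.37 and -0.50 in wild-type females and males and -0.46 and -0.56 in their knockout counterparts, past the threshold in wild-type males and both knockout strata. Idh3b did not pass in the average, at -0.18 ± 0.12 (SE; adjusted p = 0.227). The Idh3b signals of knockout males were 19852, 21837, 13519.9 and 22201 with sham surgery against 11449, 13207, 9967 and 15774 with TAC. That stratum was the one in which Idh3b passed, with a change of -0.61, and its groups overlapped. Idh2, the NADP-dependent mitochondrial enzyme, fell by 0.28 ± 0.07 (SE; adjusted p = 0.00228).

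The oxoglutarate dehydrogenase complex, which turns oxoglutarate into succinyl-CoA, had 2 subunit genes that did not pass. Ogdh (E1) was at -0.16 ± 0.07 (SE; adjusted p = 0.0861) and Dlst (E2) at -0.13 ± 0.08 (SE; adjusted p = 0.195). Dld, the E3 subunit shared with the pyruvate and branched-chain complexes, changed by -0.55 ± 0.14 (SE; adjusted p = 0.0025) and passed in knockout males, where its change was -0.95. The Dld signals of knockout males were 12447, 14317, 10419 and 5131 with sham surgery against 4347, 7190, 5555 and 3892 with TAC. The sham mice of this stratum spanned more than the 4 TAC mice, and without knockout males the mean change of Dld was -0.42 (adjusted p = 0.0607).

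Succinyl-CoA ligase pairs an alpha subunit, Suclg1, with a beta subunit for ATP (Sucla2) or for GTP (Suclg2). Suclg1 changed by -0.45 ± 0.06 (SE; adjusted p = 3.32e-07). In wild-type females, Suclg1 signals were 18239, 19962, 18276 and 17709.7 after sham surgery and 13017, 14216, 12778 and 13539 after TAC. The Suclg1 signals of wild-type males were 19181, 19914, 18484 and 20513 with sham surgery against 16746, 10833, 11759 and 13822 with TAC. For Suclg1, every TAC value lay below every sham value of the same sex and genotype in all 4 strata. In knockout females, Suclg1 signals were 19691, 19628, 16797 and 16482 after sham surgery and 15308, 15828, 14454 and 14040.2 after TAC. The Suclg1 signals of knockout males were 19270.4, 20876, 18841 and 19431 with sham surgery against 16188, 16643, 11208 and 12757 with TAC. Suclg1 log2 changes were -0.47 and -0.57 in wild-type females and males and -0.28 and -0.48 in their knockout counterparts, past the threshold in both wild-type strata and knockout males.

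Suclg2 changed by -0.45 ± 0.06 (SE; adjusted p = 4.67e-07). In wild-type females, Suclg2 signals were 8874, 10833, 10260.2 and 10193 after sham surgery and 6538, 9033, 7226 and 8541 after TAC. The Suclg2 signals of wild-type males were 10080.3, 10621, 11011 and 10799 with sham surgery against 9385, 7411, 8292 and 8925 with TAC. For Suclg2, all 4 TAC mice lay below all 4 sham mice in wild-type males and knockout males, while the groups overlapped in wild-type females and knockout females. In knockout females, Suclg2 signals were 9951, 8440, 10179 and 10154 after sham surgery and 7088, 6332, 6769.6 and 8749.9 after TAC. The Suclg2 signals of knockout males were 11046, 11039, 10362 and 8761 with sham surgery against 6564, 7389, 5500.1 and 5994 with TAC. By stratum, Suclg2 stood at log2 changes of -0.36 and -0.33 in wild-type females and males and -0.43 and -0.70 in their knockout counterparts, past the threshold in both knockout strata. Sucla2 fell by 0.31 ± 0.05 (SE; adjusted p = 9.77e-06). Sucla2 signals spanned 20102 to 24036 (median 22352) in the 16 sham mice and 15265 to 21295 (median 17885) in the 16 TAC mice, and 14 of 16 TAC mice were below the lowest sham mouse.

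Fumarase (Fh1) fell by 0.36 ± 0.06 (SE; adjusted p = 1.10e-05). Signals of Fh1 spanned 18934 to 23256 (median 20639) in the 16 sham mice and 13424 to 19743 (median 16488) in the 16 TAC mice, and 12 of 16 TAC mice were below the lowest sham mouse. Mitochondrial malate dehydrogenase (Mdh2) was at -0.18 ± 0.07 (SE; adjusted p = 0.0268) and its cytosolic counterpart of the malate shuttle (Mdh1) at -0.23 ± 0.05 (SE; adjusted p = 0.000877). With quantile normalization these 2 calls and that of Pdhb ended, with changes of -0.05 for Mdh2, -0.07 for Mdh1 and -0.01 for Pdhb. The median change over the TCA cycle and pyruvate genes was then -0.19, beside -0.30 in the main fit. Over the branched-chain genes the median was -0.44, beside -0.43.

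**Figure D2:**
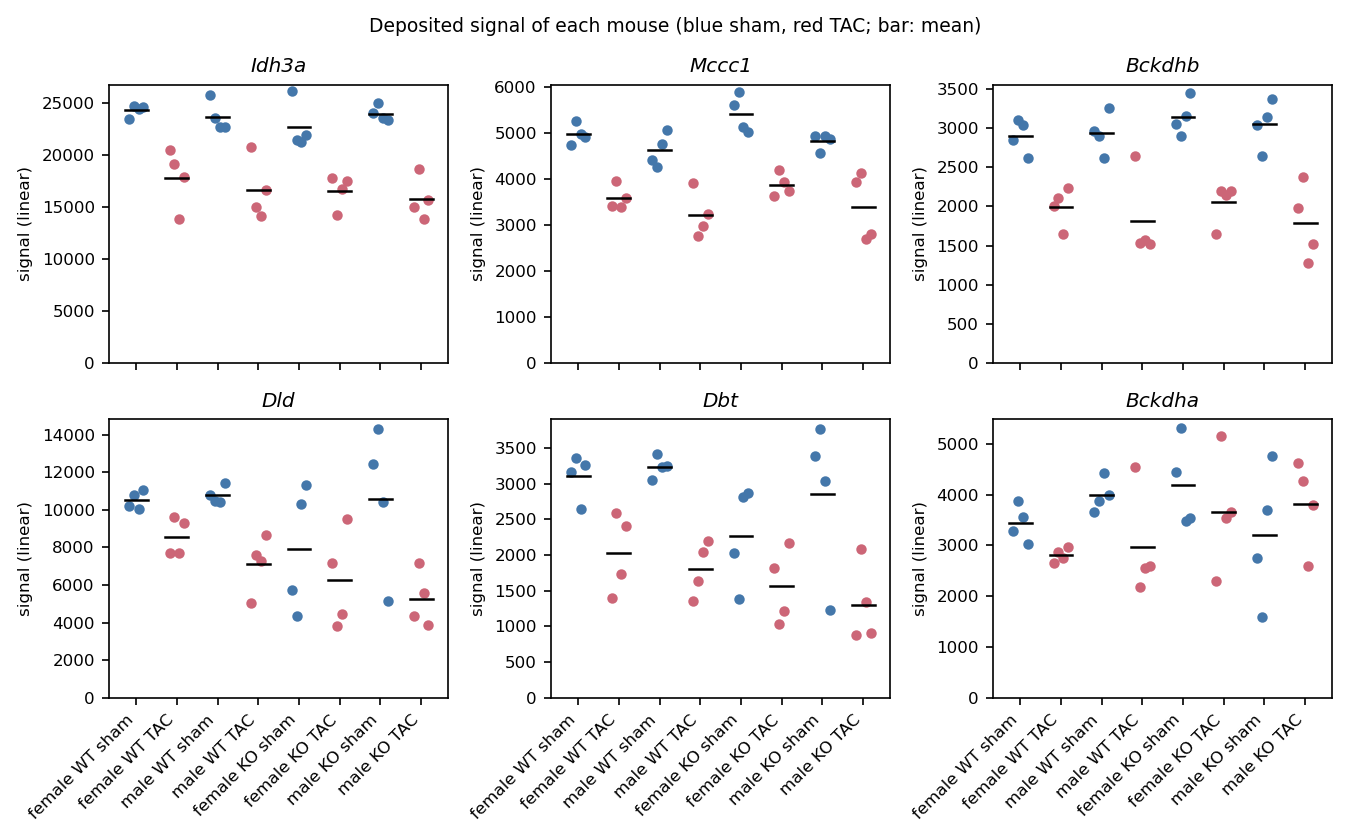
Deposited linear signal of every mouse (points; blue sham, red TAC) in the 8 groups (WT wild type, KO knockout) for Idh3a, Mccc1, Bckdhb, Dld, Dbt and Bckdha, with the group mean as a bar; each panel has its own axis from 0. For Idh3a and Mccc1 the 16 red points lie below the 16 blue points, whereas Bckdha overlaps in 3 of 4 strata.

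The mitochondrial transaminase Bcat2 starts branched-chain breakdown. Its signals ran from 594 to 2001 (median 1463) in the 16 sham mice and 1007 to 1826 (median 1263) in the 16 TAC mice, and its change of -0.14 ± 0.08 (SE; adjusted p = 0.195) did not pass. The next enzyme, branched-chain keto acid dehydrogenase, commits the carbon to oxidation. Bckdhb, the beta subunit, changed by -0.67 ± 0.08 (SE; adjusted p = 1.51e-07), or 1.59-fold lower. In wild-type females, Bckdhb signals were 2843, 3107, 3036 and 2618 after sham surgery and 2001, 2103, 1643 and 2228 after TAC. The Bckdhb signals of wild-type males were 2966, 2895, 2623 and 3254 with sham surgery against 2639, 1536, 1572 and 1515 with TAC. For Bckdhb, all 4 TAC mice lay below all 4 sham mice in wild-type females, knockout females and knockout males, while the groups overlapped in wild-type males. In knockout females, Bckdhb signals were 3046, 2899, 3154 and 3446 after sham surgery and 1652, 2199.6, 2148 and 2198 after TAC. The Bckdhb signals of knockout males were 3044, 2636, 3141 and 3366 with sham surgery against 1978, 2371, 1279 and 1519.9 with TAC. By stratum, Bckdhb stood at log2 changes of -0.54 and -0.72 in wild-type females and males and -0.61 and -0.79 in their knockout counterparts, past the threshold in wild-type males and both knockout strata. Of the 16 TAC mice 15 were below the lowest sham mouse, the exception being male wild-type TAC replicate 1.

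Bckdha, the alpha subunit, was at -0.17 ± 0.12 (SE; adjusted p = 0.29). Its signals ran from 1592 to 5304 (median 3678) in the 16 sham mice and 2184 to 5153 (median 2922) in the 16 TAC mice. Dbt, the E2 subunit, had the largest fall among the tested members, at -0.78 ± 0.15 (SE; adjusted p = 9.12e-05), or 1.72-fold lower. In wild-type females, Dbt signals were 3171, 3358, 2650.3 and 3261 after sham surgery and 1404, 2593, 1732 and 2408 after TAC. The Dbt signals of wild-type males were 3053, 3414, 3241 and 3247 with sham surgery against 1356, 1642, 2039.8 and 2192 with TAC. For Dbt, all 4 TAC mice lay below all 4 sham mice in both wild-type strata, while the groups overlapped in both knockout strata. In knockout females, Dbt signals were 2023, 1382, 2814 and 2864 after sham surgery and 1823, 1039, 1209 and 2165 after TAC. The Dbt signals of knockout males were 3389, 3763, 3035 and 1232 with sham surgery against 881, 2087, 1335 and 908 with TAC. By stratum, Dbt stood at log2 changes of -0.64 and -0.85 in wild-type females and males and -0.54 and -1.09 in their knockout counterparts, past the threshold in knockout males. The kinase that switches the complex off, Bckdk, was at 0.08 ± 0.09 (SE; adjusted p = 0.508), with signals of 1128 to 2417 (median 1561) in the 16 sham mice and 1227 to 2441 (median 1623) in the 16 TAC mice.

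Ppm1k, the phosphatase that switches the complex on and which is not among the 37 genes, fell by 1.02 ± 0.13 (SE; adjusted p = 2.94e-07). Its signals ran from 2707 to 6648 (median 5631) in the 16 sham mice and 1386 to 4091 (median 2635) in the 16 TAC mice, with 8 TAC mice below the lowest sham mouse.

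In the leucine arm, isovaleryl-CoA dehydrogenase (Ivd) fell by 0.45 ± 0.09 (SE; adjusted p = 0.000137). Ivd signals spanned 5398 to 7975 (median 7009.9) in the 16 sham mice and 3442 to 6874 (median 5082) in the 16 TAC mice. Methylcrotonyl-CoA carboxylase follows, with a biotin-carrying alpha subunit, Mccc1, and a beta subunit, Mccc2. Mccc1 changed by -0.50 ± 0.06 (SE; adjusted p = 1.1e-07), or 1.41-fold lower. In wild-type females, Mccc1 signals were 4734, 5260.4, 4963 and 4915 after sham surgery and 3411, 3958, 3384 and 3592 after TAC. The Mccc1 signals of wild-type males were 4402, 4264, 4748 and 5058 with sham surgery against 3917, 2758, 2969 and 3241 with TAC. For Mccc1, every TAC value lay below every sham value of the same sex and genotype in all 4 strata. In knockout females, Mccc1 signals were 5591, 5885, 5112 and 5006 after sham surgery and 3616, 4181, 3929 and 3743 after TAC. The Mccc1 signals of knockout males were 4921, 4553, 4932 and 4862 with sham surgery against 3927, 4122, 2687 and 2807 with TAC. Mccc1 log2 changes were -0.47 and -0.52 in wild-type females and males and -0.48 and -0.53 in their knockout counterparts, past the threshold in all 4. The highest TAC signal of any stratum (4181) was below the lowest sham signal of any stratum (4264).

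Mccc2 changed by -0.50 ± 0.08 (SE; adjusted p = 1.24e-05). In wild-type females, Mccc2 signals were 2331, 2624, 2251 and 2408 after sham surgery and 1541, 1857, 1356 and 1897 after TAC. The Mccc2 signals of wild-type males were 2336, 2439, 2474 and 2669 with sham surgery against 2419, 1402, 1477 and 1742 with TAC. For Mccc2, all 4 TAC mice lay below all 4 sham mice in wild-type females and knockout females, while the groups overlapped in wild-type males and knockout males. In knockout females, Mccc2 signals were 3220.1, 2825, 2730.2 and 2654 after sham surgery and 1913, 2202, 2082 and 2185 after TAC. The Mccc2 signals of knockout males were 2602, 2617, 2579 and 3369 with sham surgery against 2124, 2648, 1269.8 and 1884 with TAC. By stratum, Mccc2 stood at log2 changes of -0.53 and -0.52 in wild-type females and males and -0.44 and -0.53 in their knockout counterparts, past the threshold in knockout males. Auh, the hydratase of the step after it, was at -0.19 ± 0.08 (SE; adjusted p = 0.0563), and with the mean of its probe sets in place of the brightest one its sign turned (0.07). A dimmer Auh probe set, near the filter, was higher at 0.41 ± 0.08 (SE; limma, adjusted p = 0.000205).

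In the isoleucine and valine arms, Acadsb, the short branched-chain acyl-CoA dehydrogenase, fell by 0.43 ± 0.09 (SE; adjusted p = 0.000271). Acadsb signals spanned 1577 to 3059.5 (median 2447) in the 16 sham mice and 1274 to 2231 (median 1769) in the 16 TAC mice. Hibch, the hydrolase of the valine arm, was at -0.25 ± 0.12 (SE; adjusted p = 0.0879), and Hibadh, the dehydrogenase that follows it, at -0.27 ± 0.05 (SE; adjusted p = 0.000181). Aldh6a1, methylmalonate semialdehyde dehydrogenase, changed by -0.77 ± 0.09 (SE; adjusted p = 1.53e-07), or 1.70-fold lower. In wild-type females, Aldh6a1 signals were 9277, 10947, 9299 and 11457 after sham surgery and 4835, 8093, 5297 and 6537 after TAC. The Aldh6a1 signals of wild-type males were 10257, 10998, 9378 and 9127 with sham surgery against 7104, 5965, 5854 and 7107 with TAC. For Aldh6a1, all 4 TAC mice lay below all 4 sham mice in both wild-type strata and knockout males, while the groups overlapped in knockout females. In knockout females, Aldh6a1 signals were 8653, 9140.2, 10632 and 10491 after sham surgery and 5899, 5964, 6247 and 9085 after TAC. The Aldh6a1 signals of knockout males were 13003, 14655, 10435 and 8051 with sham surgery against 6137, 6549.8, 3336 and 4423 with TAC. Aldh6a1 log2 changes were -0.75 and -0.61 in wild-type females and males and -0.53 and -1.18 in their knockout counterparts, past the threshold in both wild-type strata and knockout males.

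Propionyl-CoA carboxylase turns the shared product of the isoleucine and valine arms toward succinyl-CoA. Its alpha subunit, Pcca, changed by -0.55 ± 0.10 (SE; adjusted p = 5.12e-05). In wild-type females, Pcca signals were 5143, 5077, 5032 and 5940.4 after sham surgery and 2500, 5466, 3337 and 4590 after TAC. The Pcca signals of wild-type males were 5667, 6245, 5627 and 6703 with sham surgery against 5443, 3877, 4003 and 4233 with TAC. For Pcca, all 4 TAC mice lay below all 4 sham mice in wild-type males and knockout males, while the groups overlapped in wild-type females and knockout females. In knockout females, Pcca signals were 5104, 4546, 6470.1 and 6652 after sham surgery and 3794, 3491, 4046 and 5304 after TAC. The Pcca signals of knockout males were 6099, 6675, 6009 and 5937 with sham surgery against 3736, 5209.5, 2362 and 3494 with TAC. Pcca log2 changes were -0.47 and -0.47 in wild-type females and males and -0.45 and -0.79 in their knockout counterparts, past the threshold in knockout males. The beta subunit, Pccb, was at -0.07 ± 0.09 (SE; adjusted p = 0.534). Pccb signals spanned 1459 to 2779 (median 2196) in the 16 sham mice and 1451 to 3164 (median 1956) in the 16 TAC mice.

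Subunits of an enzyme were also compared within each mouse, as the difference of their log2 values, for 7 pairs. This comparison was added after the members' changes had been seen, so its p-values are not independent of those changes. Each difference was compared between TAC and sham by permuting surgery within the strata (100000 permutations, two-sided, Benjamini-Hochberg over the 7 pairs). Bckdhb fell relative to Bckdha by 0.50 (permutation p = 6e-05, adjusted p = 0.00042), with the same sign in 4 of 4 strata and the widest gap, -1.12, in knockout males. Pcca fell relative to Pccb by 0.47 (permutation adjusted p = 0.00532; 4 of 4 strata) and Pdha1 relative to Pdhb by 0.33 (permutation adjusted p = 0.00098; 4 of 4 strata). Idh3a fell relative to Idh3b by 0.34 (permutation adjusted p = 0.0314; 3 of 4 strata). The 3 remaining pairs did not pass: Sucla2 to Suclg2 stood at 0.14 (permutation adjusted p = 0.0819), Idh3a to Idh3g at -0.04 (permutation adjusted p = 0.621) and Mccc1 to Mccc2 at 0.00 (permutation adjusted p = 0.925). A ratio shows unequal change of 2 probe sets, not that one of them stayed level. Leaving out any 1 array kept the sign of the 4 that passed. With the beta-actin covariate, however, Pcca stood at -0.44 and Pccb at -0.55, so the sign of that pair turned. The pair of Idh3a and Idh3b also depended on the probe set, as dimmer ones of Idh3b stood at -0.34 and -0.02.

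**Figure D3:**
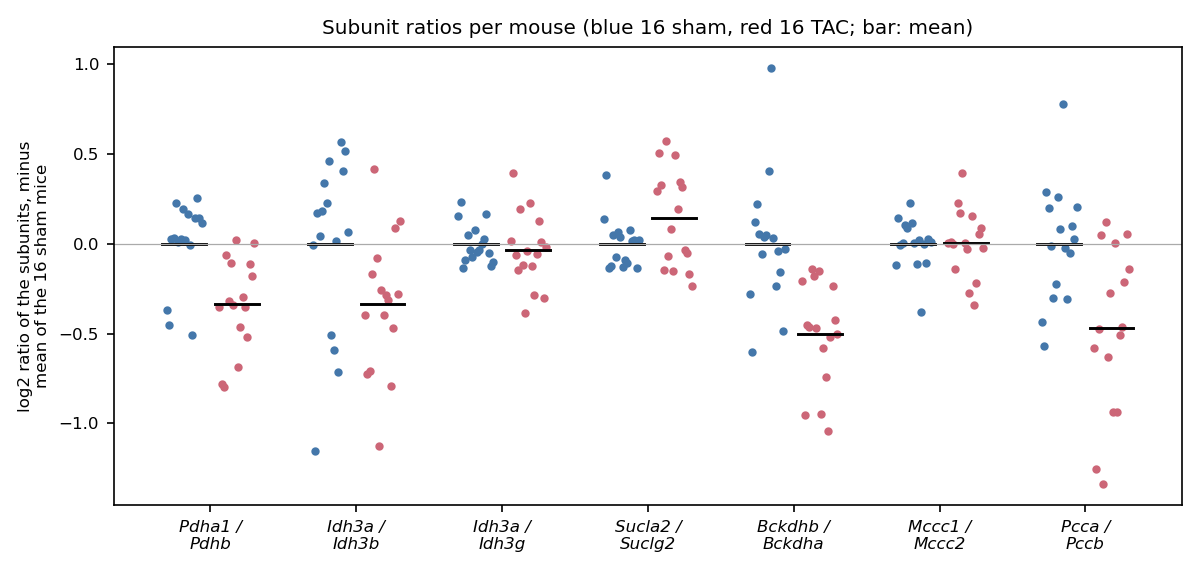
Log2 ratio of the subunits of an enzyme in each mouse, minus the mean ratio of the 16 sham mice (points; blue 16 sham, red 16 TAC; black bar, mean). The red means are lowest for Bckdhb to Bckdha (-0.50) and Pcca to Pccb (-0.47) and lie at 0.00 for Mccc1 to Mccc2.

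The promoters of 2 of these enzymes are printed because one had a subunit difference that passed this test (Bckdhb, Bckdha) and the other had one near 0 that did not (Mccc1, Mccc2). They are the 250 bases before the annotated start, 5′ to 3′ on the gene's strand, from RefSeq on GRCm38.p6: Mccc1 at chr3:36000679-36000928 (minus strand), Mccc2 at chr13:100015640-100015889 (minus), Bckdhb at chr9:83924887-83925136 (plus, the first of 2 starts in the table) and Bckdha at chr7:25658762-25659011 (minus). Capitals mark the E-box letters CACGTG.
Mccc1: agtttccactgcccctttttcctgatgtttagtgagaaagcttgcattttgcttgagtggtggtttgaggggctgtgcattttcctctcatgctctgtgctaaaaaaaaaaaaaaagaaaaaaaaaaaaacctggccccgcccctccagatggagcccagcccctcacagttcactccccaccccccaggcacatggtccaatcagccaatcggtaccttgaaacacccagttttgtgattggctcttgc
Mccc2: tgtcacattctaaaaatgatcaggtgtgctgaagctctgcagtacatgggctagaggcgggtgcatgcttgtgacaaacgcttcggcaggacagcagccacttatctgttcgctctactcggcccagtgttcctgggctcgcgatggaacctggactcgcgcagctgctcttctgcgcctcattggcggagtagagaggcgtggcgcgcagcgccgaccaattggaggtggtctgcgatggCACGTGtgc
Bckdhb: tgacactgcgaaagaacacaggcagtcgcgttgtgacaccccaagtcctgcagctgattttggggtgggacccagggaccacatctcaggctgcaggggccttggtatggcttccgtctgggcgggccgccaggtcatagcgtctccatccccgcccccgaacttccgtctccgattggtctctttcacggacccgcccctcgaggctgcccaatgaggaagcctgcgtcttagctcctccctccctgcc
Bckdha: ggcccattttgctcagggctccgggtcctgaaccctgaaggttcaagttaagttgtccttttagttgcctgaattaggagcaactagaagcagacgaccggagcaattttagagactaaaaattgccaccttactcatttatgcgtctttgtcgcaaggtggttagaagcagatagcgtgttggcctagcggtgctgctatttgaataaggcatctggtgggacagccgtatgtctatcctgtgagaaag
Mccc2 held 18 CG pairs and Mccc1 2, Bckdhb 15 (1 at its second start) and Bckdha 8. The median was 15 over the 47 promoters found for 35 of the 37 members and 6 over all 32851 promoters. Idh3a and Dbt had no promoter entry and are in no motif count, whereas Mpc2 and Bcat1, not tested above, are included.

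Across the window from 250 bases before to 50 after the start, 6 motifs were searched on both strands. CACGTG was found in 5 of the 47 member promoters (Ogdh, Pcx and Mccc2) and in 7.15% of all promoters, and the ETS letters CCGGAAG in 5 of 47 (Idh3b, Idh3g, Dlst, Mpc1 and Auh) and 8.86% of all. The letters AAGGTCA, which are part of the longer TCAAGGTCA bound by estrogen-related receptors, were in 1 (Ogdh) against 4.72%, and TCAAGGTCA in 0 against 0.423%. The palindromic NRF1 consensus was in 0 against 0.971%, and the consensus estrogen response element in 0 against 0.0700%. These are matches of letters in one window and no measure of binding.

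Within the single strata, 5 of 35 members were lower in wild-type females, beside 3.28% of all genes called (1.23% lower), and 13 were lower in wild-type males, beside 5.56% (2.45% lower). In knockout females 6 were lower, beside 5.58% (1.83% lower). In knockout males 21 were lower and 1, Pcx, was higher, beside 32.6% (12.9% lower and 19.6% higher). Idh3a and Mccc1 passed in all 4 strata. Of the 15 branched-chain genes 2 and 4 were lower in wild-type females and males, and 2 and 10 in knockout females and males.

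These counts used 1 spread per gene over all 32 arrays, although knockout groups varied more than wild-type groups. Fitted on the groups compared only, TCA cycle and pyruvate genes called lower were 3, 13, 0 and 5 in the order above. Branched-chain genes called lower were then 7, 9, 1 and 3. The main counts also rested on single arrays in several strata. In wild-type females the count was 0 to 2 without sham replicate 2, 3 or 4 or TAC replicate 1 or 3. In wild-type males it was 4 to 8 without sham replicate 2, 3 or 4 or TAC replicate 2 or 3. In knockout females it was 2 to 3 without sham replicate 1, 3 or 4 or TAC replicate 1, 2 or 3, and in knockout males it was 14 without sham replicate 2. With the beta-actin covariate the counts were 1, 5, 1 and 8 in the same order, and with the Gapdh covariate 0, 1, 3 and 14. The share of all genes called under these other settings is not given here. A change in the counts is therefore not read as particular to the members. The median changes by stratum over the TCA cycle and pyruvate genes were -0.29, -0.38, -0.23 and -0.32 without a covariate, -0.30, -0.48, -0.30 and -0.37 with beta-actin and -0.24, -0.32, -0.22 and -0.28 with Gapdh. Over the branched-chain genes they were -0.47, -0.47, -0.28 and -0.51 without, -0.41, -0.51, -0.36 and -0.52 with beta-actin and -0.45, -0.45, -0.31 and -0.51 with Gapdh.

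**Figure D4:**
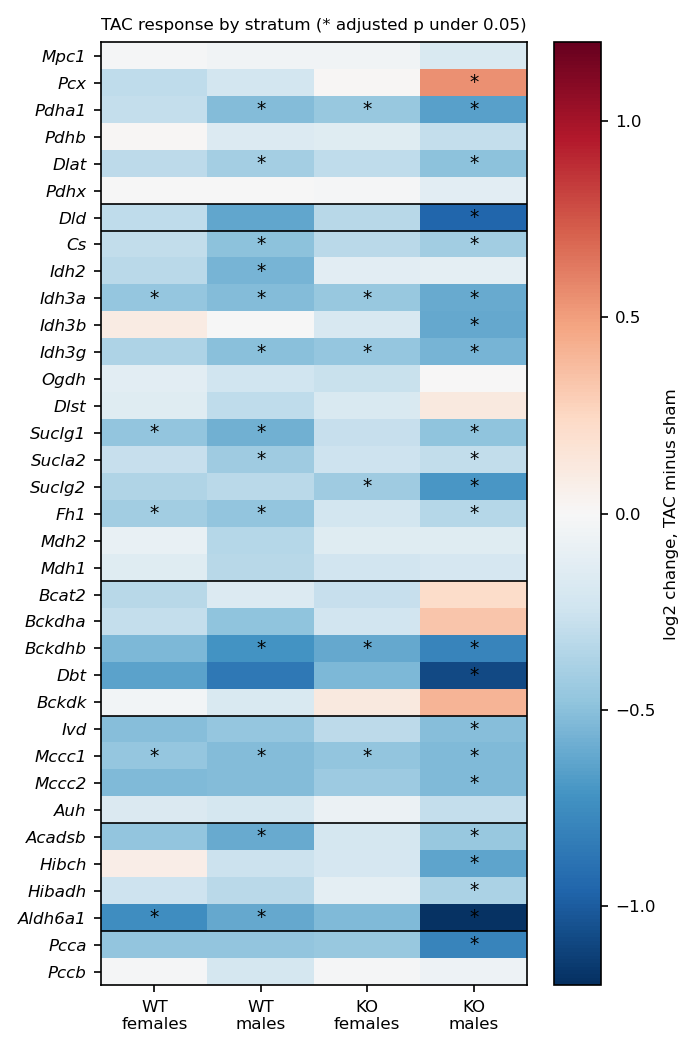
Log2 change, TAC minus sham, of each tested member (rows, by pathway step) in the 4 strata (columns; WT wild type, KO knockout); blue is lower and red higher after TAC, and an asterisk marks an adjusted p under 0.05. Idh3a and Mccc1 carry 4 asterisks, and Pcx in knockout males is the one red cell with one.

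Non-overlap was counted beside the tests. All 4 TAC mice lay below all 4 sham mice for 8 of 20 TCA cycle and pyruvate genes and 9 of 15 branched-chain genes in wild-type females, where 6.47% of all genes did so. In wild-type males it was 11 and 7, beside 8.11%. In knockout females it was 7 and 4, beside 4.19%, and in knockout males again 7 and 4, beside 6%. None of the 35 tested members had all TAC mice of a stratum above all its sham mice. Bcat1, below the filter, did in knockout males, at 31.5, 60.7, 47.1 and 32.2 with sham surgery and 61.9, 63, 183.8 and 125.7 with TAC. The share of all genes separated upward is not given here, so neither observation is read as particular to these genes.

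The mean over the branched-chain genes, relative to the sham mice, was lowest in male knockout TAC replicates 3 and 4 (-0.78 and -0.60) and nearest to sham in male wild-type TAC replicate 1 (-0.11). The TCA cycle and pyruvate mean of that wild-type mouse was -0.10, while the same male knockout TAC mice stood at -0.50 and -0.42. In group means ± SD (n = 4), the branched-chain genes stood at -0.36 ± 0.16 in wild-type female, -0.38 ± 0.20 in wild-type male, -0.31 ± 0.12 in knockout female and -0.46 ± 0.28 in knockout male TAC mice. The TCA cycle and pyruvate genes stood at -0.22 ± 0.09, -0.32 ± 0.15, -0.28 ± 0.05 and -0.33 ± 0.16 in the same groups. The 4 ranges overlapped for both sets of genes.

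**Figure D5:**
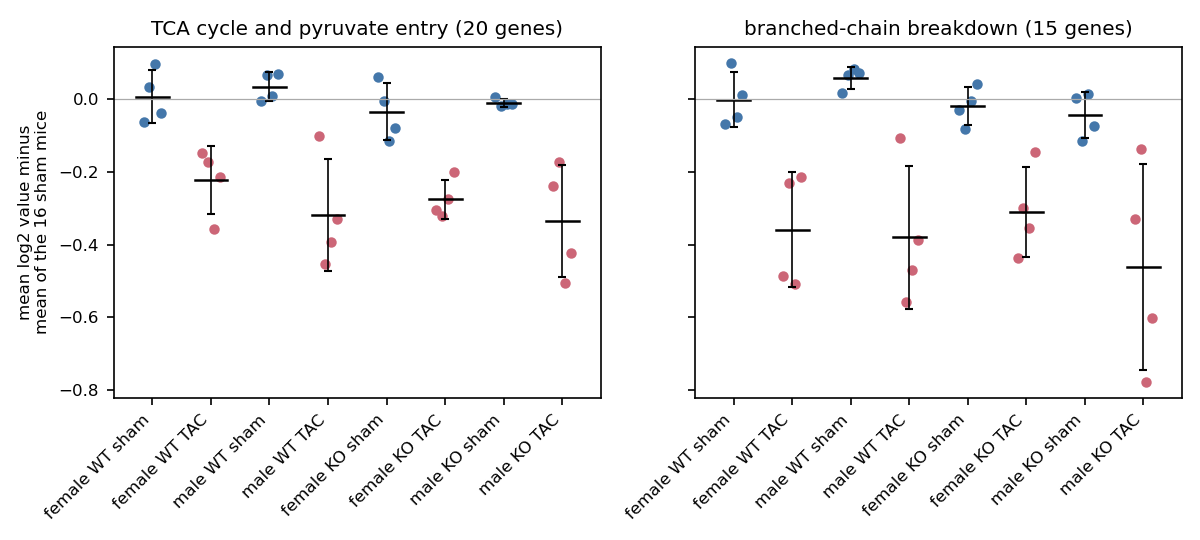
Mean log2 value per mouse (points; blue sham, red TAC) of the 20 TCA cycle and pyruvate genes (left) and the 15 branched-chain genes (right), minus the mean of the 16 sham mice, in the 8 groups (WT wild type, KO knockout); black bars are group means ± SD (n = 4). The branched-chain means after TAC lie between -0.78 and -0.11.

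Whether the response to TAC differed between sexes or genotypes was asked with interaction contrasts, in which limma called 0 members and 0% of all genes in each of the 4. The sex difference ran from -0.34 (Hibch) to 0.17 (Bcat2) in wild-type mice and from -0.65 (Aldh6a1) to 0.56 (Bckdha) in knockouts, male minus female. The genotype difference, knockout minus wild type, ran from -0.29 (Idh3b) to 0.33 (Pcx) in females and from -0.61 (Idh3b) to 0.81 (Bckdha) in males. The median half-width of the 95% confidence intervals was 0.42. At an unadjusted p under 0.05 there were 0, 3, 0 and 6 members and 198, 803, 314 and 1523 of the 11014 genes, in the order given. The smallest adjusted p among the members was 0.280, for Pcx in males.

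With arrays weighted by their spread, 11 of 35 members passed in the male genotype difference. This is near the 26.4% of all genes that passed, so the count is not particular to the members. Pcx (0.98 ± 0.20 SE), Bckdha (1.08 ± 0.25), Bckdk (0.80 ± 0.19), Dlst, Bcat2, Idh2 and Ogdh were higher, and Aldh6a1 (-0.70 ± 0.21), Dld (-0.78 ± 0.28), Hibch and Suclg2 were lower in knockouts. Without male knockout sham replicate 4 the unweighted count was 1, beside 4.08% of all genes. The sham and TAC mice of both genotypes enter this difference, and the sham mice differed as follows.

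Among the sham-operated mice, 0 members were called between males and females in either genotype. Of all genes, 0.0454% were called in wild-type mice and 0.0272% in knockouts. Between genotypes 0 members were called in female sham mice, beside 0%, and 0 in male sham mice, beside 0.0908%. Unadjusted p-values under 0.05 were found for 0 and 2 members between the sexes and 0 and 4 between the genotypes, with 271, 1149, 1070 and 1340 genes. The nearest to the threshold was Bcat2 in knockout against wild-type male sham mice, at -0.73 (limma, adjusted p = 0.0576), followed by Idh3b at 0.86 (adjusted p = 0.105). With array weights 6 of 35 members passed there, near the 13.2% of all genes that did. They were Bcat2, Bckdha, Dlst, Ogdh and Pcx, all lower, and Idh3b, higher. Without male knockout sham replicate 4 the count was 3 between male genotypes, beside 4.36% of all genes, and 2 between the sexes in knockout sham mice, beside 5.34%. Without replicate 3 it was 2 between male genotypes, beside 0.953%.

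Knockout mice varied more among themselves than wild-type mice did. The median SD of the members' log2 values within groups was 0.25 in knockout and 0.18 in wild-type groups, larger in knockouts for 27 of 35 members, as over all genes (0.28 and 0.20; 8770 of 11014). In female knockout sham mice Dld signals were 5725, 4353, 10311 and 11343, and Bckdha signals of the same mice were 4444, 5304, 3485 and 3543. In male knockout sham mice Dld signals were 12447, 14317, 10419 and 5131 and Bckdha signals 2750.2, 1592, 3692 and 4764. In both groups the mouse or mice low in Dld were those high in Bckdha. Female wild-type sham mice, in contrast, ran from 10031 to 11058 for Dld and from 3037 to 3883 for Bckdha. The first component of within-group variation held 30.4% of that variance. The 4 arrays farthest along it were female knockout sham replicate 2, male knockout sham replicates 2 and 4 and male wild-type TAC replicate 1. Without them 27 members were lower in the average and 21 in wild-type males. The share of all genes called without them is not given here, so these counts are not read as particular to the members. Median changes in the average were then -0.31 over the TCA cycle and pyruvate genes and -0.48 over the branched-chain genes.

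Of 30 further TCA cycle and pyruvate genes, 28 were tested and 15 were lower and 4 higher in the average over strata. Of all tested genes 17.8% were lower and 23.5% higher there, so higher genes were no more frequent in this list. The 5 with the smallest p among those called were all lower. Sdha and Sdhd, subunits of succinate dehydrogenase, fell by 0.51 ± 0.05 and 0.31 ± 0.05 (SE), mitochondrial acetyl-CoA synthetase Acss1 by 0.71 ± 0.10, the pyruvate dehydrogenase phosphatase Pdp2 by 0.74 ± 0.11 and cytosolic aspartate transaminase Got1 by 0.42 ± 0.07. Pdp2 signals ran from 440.4 to 638.5 (median 520.8) in the 16 sham mice and 146.9 to 523.3 (median 324.2) in the 16 TAC mice. The 4 that were higher, named after their values were seen, were the citrate carrier Slc25a1 (0.68 ± 0.13), malic enzyme Me2 (0.33 ± 0.07), mitochondrial phosphoenolpyruvate carboxykinase Pck2 (0.39 ± 0.14) and the dicarboxylate carrier Slc25a10 (0.20 ± 0.07). Pdk4, a kinase that switches pyruvate dehydrogenase off, was at 0.05 ± 0.25 (SE; adjusted p = 0.880) and ranged from 3290 to 17963 in sham and from 4593 to 21412 in TAC mice.

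Of 20 further branched-chain genes, 18 were tested and 13 were lower and 3 higher, beside 17.8% lower and 23.5% higher of all genes. Higher genes were thus no more frequent in this list either. Besides Ppm1k, the 5 with the smallest p held Acaa2 (-0.80 ± 0.10), Echs1 (-0.43 ± 0.05) and Hadhb (-0.41 ± 0.05), which act in fatty acid oxidation and in parts of these routes. Abat, the GABA transaminase, was higher by 0.92 ± 0.10, at 230.2 to 433.2 (median 358.3) in the 16 sham mice and 402.2 to 1019 (median 713.5) in the 16 TAC mice. The other 2 that were higher, named after their values were seen, form the large neutral amino acid transporter of the plasma membrane: Slc7a5 (0.95 ± 0.15), whose signals were 20.3 to 151.9 in sham mice (median 89.95, under the filter's 106.1) and 111.3 to 316 in TAC mice, so that it passed the filter through its TAC mice, and Slc3a2 (0.30 ± 0.09).

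Of 15 regulators of mitochondrial genes, all tested, 5 were lower and 1 was higher, beside 17.8% lower and 23.5% higher of all genes. In either direction the share called was near the 41.2% of all genes called in this comparison. The coactivator Ppargc1a fell by 0.68 ± 0.10 (SE; adjusted p = 2.85e-06), from 2185 to 3839 (median 3042) in the 16 sham mice to 1178 to 2598 (median 1993) in the 16 TAC mice. Mef2a (-0.59 ± 0.08), Esrrg (-0.39 ± 0.15), Ppara (-0.35 ± 0.10) and Gabpa (-0.28 ± 0.06) were also lower, and Ppard was higher (0.35 ± 0.10). Esrra, the estrogen-related receptor alpha gene, was at 0.11 ± 0.12 (adjusted p = 0.447), and Klf15, a transcription factor tied to branched-chain breakdown in the heart, at -0.29 ± 0.13 (adjusted p = 0.0688).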

How the data were processed

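RNA from the left ventricle of 32 mice was amplified from an oligo(dT) primer and put on 1 Affymetrix mouse 430 2.0 array each, per the labels' protocols. Values are the authors' deposited linear signal intensity of each probe set; the submitters' processing notes name MAS5 5.0. Every array had a 2% trimmed mean of 500, and the intensity values were used as deposited. Scan date, batch and genome build are not given in the sources used here.

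Of 45101 probe sets, 64 controls were left out, 34945 had 1 gene symbol, 932 several and 9160 none in the platform annotation. The brightest probe set stood for a gene. Of 41 other probe sets of members 30 were tested, 25 gave the same call; of the other 5, 2 were lower (Idh3b, Dlst) and 1 higher (Auh) where the brightest was not called, and 2 were not called (Idh2, Pdhb) where it was lower. Genes with a mean at or above log2 7.11 (signal 106.1), the median of all probe sets, were tested. Contrasts of 8 group means of log2(signal + 32) were fitted over all 32 arrays with limma 3.58.1 in R 4.3.3 (lmFit, eBayes with trend), two-sided, with Benjamini-Hochberg adjustment over the 11014 genes of a comparison and a threshold of 0.05. The script was tested on simulated data.

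The members and gene lists were chosen with earlier results of these data known. Every mouse's signal is given for the 6 TCA cycle or pyruvate genes and the 6 branched-chain genes with the smallest p in the mean contrast. Of each further list up to 5 called genes with the smallest p are named, and Pdk4, Ppargc1a, Esrra, Klf15, Ppm1k and Esr2 whatever their value; 1 further gene of that rule is not reported here. Other settings were quantile normalization, median centring, pseudocounts of 1 and 128, other filters, the mean of probe sets, a replicate block, array weights, eBayes without trend, only the groups compared, 3-prime over 5-prime covariates and leaving out each array.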

Additional observations from a re-analysis of the deposited data

Results flagged for a closer look

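The 12 members with every mouse's signal given, and the means of both sets of genes, gave 112 groups of 4 mice, of which 9 had a mouse far from the other 3; chance gives about 1 in 20. In female knockout sham mice, Idh3a was high in replicate 1 (26182, the others 21300 to 21940), while Suclg2 (8440, the others 9951 to 10179) and Idh3g (15298, the others 19641 to 19767) were low in replicate 2. In female knockout TAC mice, Cs was low in replicate 2 (20893, the others 22683 to 23043), Bckdhb low in replicate 1 (1652, the others 2148 to 2200) and Aldh6a1 high in replicate 4 (9085, the others 5899 to 6247). In male wild-type TAC mice, Bckdhb was high in replicate 1 (2639, the others 1515 to 1572). In male knockout sham mice, Mccc2 was high in replicate 4 (3369, the others 2579 to 2617). In female wild-type sham mice, Pcca was high in replicate 4 (5940, the others 5032 to 5143).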

How the results depend on the processing

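The count of members lower in the average over the 4 strata was 18 to 27 under other settings and 22 to 25 without any 1 array, apart from 14 with the beta-actin covariate. Counts for wild-type females (5) became 2 with median centring, 13 with array weights, 10 with only the groups compared, 0 with the Gapdh and 1 with the beta-actin covariate, and 0 to 6 without 1 array. Those for wild-type males (13) became 5 with quantile normalization, 8 with the mean of probe sets, 28 with array weights, 22 with only the groups compared, 1 and 5 with the Gapdh and beta-actin covariates, 21 without the 4 arrays farthest along the first within-group component, and 4 to 18 without 1 array. Knockout females (6) gave 0 with median centring, 12 with array weights, 1 with only the groups compared, 3 and 1 with the covariates, and 2 to 7 without 1 array. Knockout males (22) gave 8 with only the groups compared, 14 and 8 with the covariates, and 14 to 22 without 1 array. The male genotype difference gave 11 with array weights and 0 to 1 without 1 array, and knockout against wild-type male sham 6 and 0 to 3. Males against females in knockout sham mice gave 0 to 2 without 1 array, and the other interactions and sham comparisons 0 to 0. The share of all genes called is not set beside each of these counts, so a change in them is not read as particular to the members. The causes were not tested.

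Signs turned for Auh with the mean of probe sets (0.073), Bckdk with the beta-actin covariate (-0.19) and in the mean of 3 strata without knockout males (-0.032), Idh3b with beta-actin (0.079), Mpc1 with quantile normalization (0.012) and Gapdh (0.028), and Pccb with Gapdh (0.0033); none of these passed in the main setting. Pcx, near 0, turned with quantile normalization (-0.0086), Gapdh (-0.036), beta-actin (-0.27), the 3 strata (-0.17), without both arrays that stood apart (-0.035) and in 7 of the 32 fits leaving out 1 array, which ranged from -0.034 to 0.052. The settings without sets of arrays and with 3 strata were chosen after seeing the data.

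Replicate numbers did not pair the samples: deviations of same-numbered mice had a median correlation of 0.01 over 112 pairs, 35 of them over 0.1, and other pairs -0.01. With the replicate block, 23 members were lower in the average, and no count moved by over 1.5 times. With 4 mice a group and the interval widths given above, differences in response smaller than about those widths could not be told from 0.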
